A study of Mus musculus with 48 samples.

Results

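The glucocorticoid receptor gene Nr3c1 and 6 genes known as targets or partners of glucocorticoid action (Tsc22d3, Fkbp5, Sgk1, Mt1, Mt2 and Hsd11b1) were followed across the day in livers of wild-type and Nono-/- mice. The genes were chosen by name, with earlier results of these data known, as 7 of the 24453 genes in the exon table. All 7 were also among the 20771 genes of the intron table. All 7 passed the filter on low values in every measure, and none overlaps another gene of the tables. Nono encodes a nuclear RNA- and DNA-binding protein that takes part in transcription and RNA processing.

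Total RNA and nuclear RNA were sequenced from the same livers, which gave 48 libraries in 4 groups of 12: wild-type total, Nono-/- total, wild-type nuclear and Nono-/- nuclear RNA. Both genotypes were C57BL/6 mice of 14 weeks, kept in 12 h of light and 12 h of dark and given food in the dark phase alone for a week. Livers were collected at 12 zeitgeber times (ZT, counted in hours from lights on), from ZT0 to ZT22 in steps of 2 h. Each library is 1 pool of 2 mice and each time point has 1 library per group, so the mice of a pool cannot be told apart and the spread was taken around a smooth 24 h curve. The allele that removes Nono and the sex of the mice are not given in the sources used here.

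Glucocorticoids, corticosterone in mice, are released from the adrenal gland in a daily pulse that in nocturnal animals comes near the onset of darkness. The hormone enters liver cells and binds the receptor, which is held ready in the cytoplasm by Hsp90 chaperones, and the complex moves to the nucleus and binds DNA at glucocorticoid response elements. Hsd11b1 makes active hormone from its inert keto form inside the liver cell, and Fkbp5, induced by the receptor, lowers the receptor's affinity for hormone. In the liver this pathway is known for its control of glucose production, amino acid breakdown and inflammation.

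Depth was 9.91 to 28.9 M reads per library (M for mega). Nono exons measured 9.95 ± 0.594 FPKM (fragments per kilobase of counted length and per M reads, SD, n = 12) in wild-type total RNA and 0.0162 ± 0.0292 in Nono-/- total RNA, where 8 of 12 libraries were at 0. Nono introns were lower in Nono-/- but remained, with 0 libraries at 0. They measured 0.374 FPKM in wild-type and 0.0899 in Nono-/- total RNA, and 1.42 and 0.437 in nuclear RNA. The share of reads in introns was 22.1% ± 1.72 (SD, n = 12) in wild-type and 18.5% ± 2.41 in Nono-/- total RNA. Markers of hepatocytes (6 genes) summed to 30156 to 48962 FPKM in wild-type and 36344 to 49684 in Nono-/- total RNA. The 6 Kupffer cell markers summed to 54.4 to 151 and 75.5 to 184 FPKM, while the 4 neutrophil markers summed to 1.21 to 58.2 and 3.81 to 21.2 FPKM. The limma model described below called 5 of 6 Kupffer cell markers higher in Nono-/- total RNA exons (adjusted p under 0.05). Of all 11352 genes 4.49% were called higher. It called 1 of 6 hepatocyte and 1 of 4 stellate cell markers higher, and 0 of 5 endothelial, 0 of 3 erythroid and 0 of 2 neutrophil markers. The part of other cell types in the results below was not tested, and in bulk liver fewer cells of a type and less RNA per cell cannot be told apart.

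In total RNA exons, which stand mainly for mature messenger RNA, the level per length ran from Hsd11b1 down to Fkbp5. Hsd11b1 stood at 336 ± 30.2 FPKM (SD, n = 12) in wild type and 380 ± 52.2 in Nono-/-, with its lowest library above the highest library of any other of the 7 genes. Tsc22d3 followed at 59.8 ± 25.9 and 48.1 ± 24.7 FPKM, then Mt1 at 29.1 ± 33.3 and 38.0 ± 35.4, and Nr3c1 at 24.6 ± 2.63 and 26.4 ± 2.80. These ranges overlapped, because Mt1 swung from 3.64 to 104 FPKM over the wild-type day. Mt2 was at 9.12 ± 11.8 and 12.5 ± 16.2 FPKM, Sgk1 at 8.84 ± 2.21 and 8.21 ± 1.30, and Fkbp5 at 7.45 ± 5.51 and 7.30 ± 4.99. The last 3 did not separate from each other in either genotype, and Sgk1 stayed below the lowest Nr3c1 library.

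**Figure D1:**
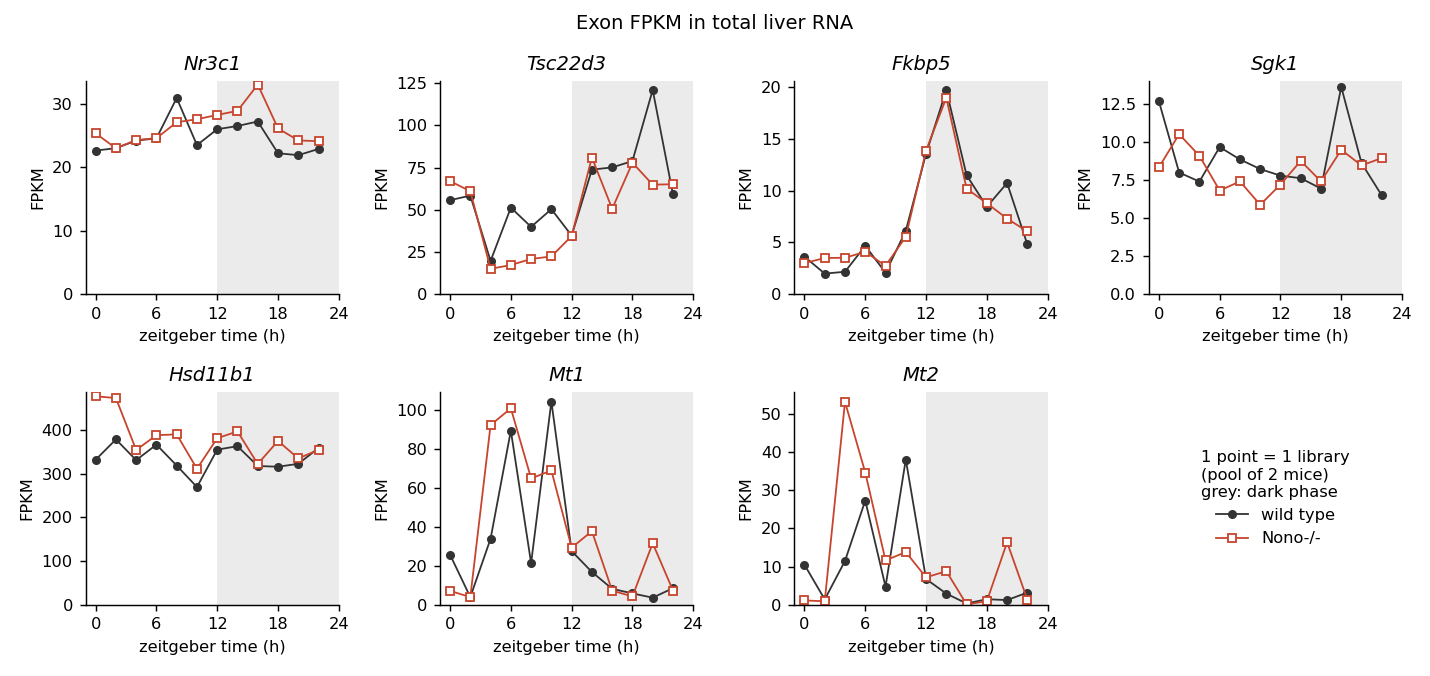
Exon FPKM of the 7 genes in total liver RNA (y axis, linear, from 0) against zeitgeber time in hours (x axis). Each point is 1 library, a pool of 2 mice, for wild type (filled circles) and Nono-/- (open squares). Fkbp5 is highest at ZT14 in both genotypes, Mt1 and Mt2 are high in the light phase, and Nr3c1 and Hsd11b1 stay within a narrow band.

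The genotype difference was read as Nono-/- minus wild type over the day on the log2(FPKM + pseudocount) scale, in a limma model with Benjamini-Hochberg adjustment over all genes tested. In total RNA exons 0 of the 7 genes passed, against 4.49% of 11352 genes higher and 6.57% lower in Nono-/-, and 2 of the 7 (Tsc22d3 and Hsd11b1) had an unadjusted p under 0.05. In nuclear RNA introns, which stand mainly for unspliced transcripts, 0 of 7 passed against 8.48% of 12055 genes higher and 9.46% lower, with 3 of 7 (Nr3c1, Sgk1 and Fkbp5) at an unadjusted p under 0.05. In nuclear RNA exons 1 of 7 passed, Nr3c1, against 15.9% of 10500 genes higher and 18.5% lower. In total RNA introns 0 of 7 passed, against 7.11% of 9422 genes higher and 8.87% lower, with 3 of 7 (Sgk1, Fkbp5 and Hsd11b1) at an unadjusted p under 0.05. The nuclear to total exon ratio also gave 0 of 7, against 10.7% of 9871 genes higher and 8.99% lower, with 3 of 7 (Nr3c1, Fkbp5 and Mt1) at an unadjusted p under 0.05. Over all genes an unadjusted p under 0.05 was found for 2991 of 11352 in total RNA exons and 4121 of 12055 in nuclear introns. It was found for 2961 of 9422 in total RNA introns and 3690 of 9871 in the ratio. In nuclear exons 4896 of 10500 genes had it, and 1 of the 7 (Nr3c1). A fit with the time point as a block, an alternative to the main fit, raised the counts that passed. It gave 1 in total RNA exons (Tsc22d3) and 2 in nuclear introns (Nr3c1 and Fkbp5). It also gave 2 in nuclear exons (Nr3c1 and Tsc22d3), 1 in total introns (Fkbp5) and 2 in the ratio (Fkbp5 and Mt1). Over all genes it raised the count in total RNA exons from 1256 to 2082. The share of all genotype calls that were higher in Nono-/- depended on the scaling: without it the share was 58.6% in place of 40.6% in total RNA exons, 10.1% in place of 46.2% in nuclear exons, 2.88% in place of 44.5% in total RNA introns (32.3% with the 75th percentile) and 7.27% in place of 54.3% in the ratio.

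**Figure D2:**
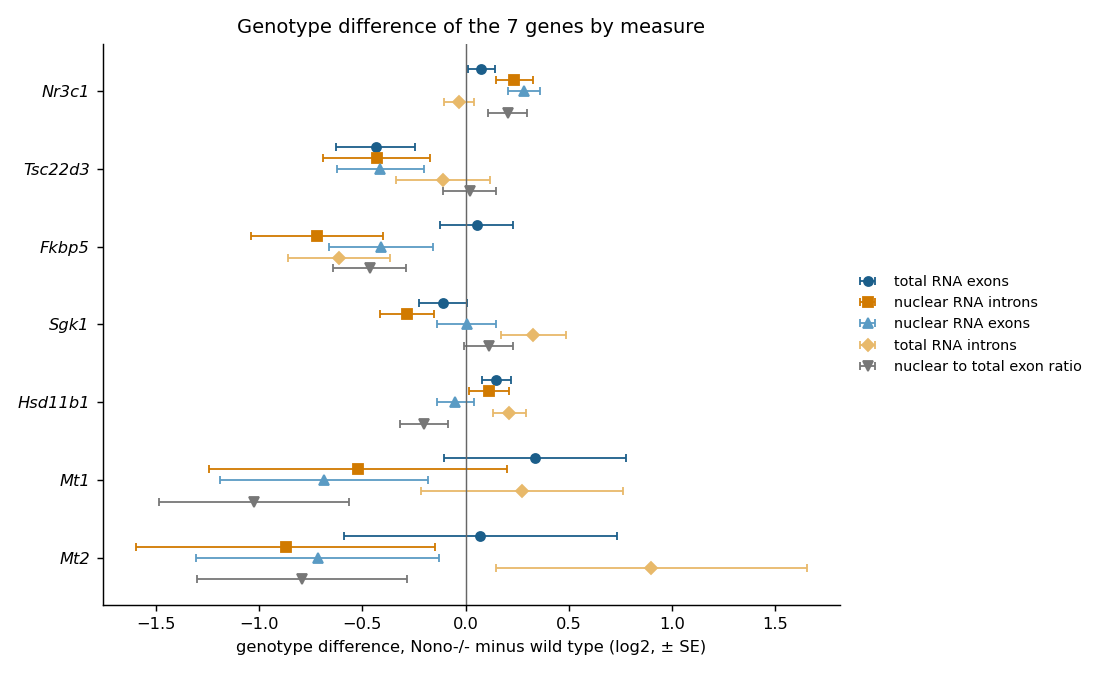
Genotype difference over the day, Nono-/- minus wild type, in log2 units (x axis) for each of the 7 genes (y axis) in 5 measures. Points are model estimates from 12 libraries per genotype and bars are standard errors. Fkbp5 lies near 0 in total RNA exons and below 0 in the other 4 measures, and the bars of Mt1 and Mt2 are the widest.

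Daily rhythms were tested as a 24 h cosine curve in each genotype. In total RNA exons 3 of the 7 genes were rhythmic in wild type (Fkbp5, Tsc22d3 and Mt1), against 31.8% of all genes, and the same 3 in Nono-/-, against 29.6%. In nuclear introns 3 of 7 passed in wild type (Fkbp5, Mt1 and Hsd11b1), against 21% of genes, and 2 of 7 in Nono-/- (Tsc22d3 and Hsd11b1), against 32%. In nuclear exons 2 of 7 passed in wild type (Fkbp5 and Hsd11b1), against 10.7%, and 3 of 7 in Nono-/- (Fkbp5, Tsc22d3 and Hsd11b1), against 31.1%. The difference in rhythm between the genotypes passed for 0 of 7 genes in each of these 3 measures, against 0% of all genes. At an unadjusted p under 0.05 it passed for 0 of the 7 genes and for 1210, 811 and 558 genes in all in total RNA exons, nuclear introns and nuclear exons. In the nuclear to total exon ratio 2 of the 7 (Sgk1 and Fkbp5, both at an adjusted p of 0.360) had an unadjusted p under 0.05, as did 1342 of 9871 genes.

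Nr3c1, on chromosome 18 (39410545 to 39487245, minus strand, build mm10), encodes the receptor itself, and its messenger RNA was among the steadiest of the set. In total RNA exons it ran from 21.9 through a median of 23.8 to 30.9 FPKM in wild type and from 23.0 through 25.7 to 33.0 in Nono-/-. The highest wild-type library was ZT8, the highest Nono-/- library was ZT16, and the genotypes overlapped. The genotype difference was 0.08 ± 0.06 log2 (SE, adjusted p = 0.487). Neither genotype's daily curve passed, with a peak-to-trough difference of 0.30 log2 in wild type (adjusted p = 0.176) and 0.40 log2 in Nono-/- (adjusted p = 0.0543).

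In the nucleus Nr3c1 read higher in Nono-/- relative to the median gene. Nuclear introns ran from 4.08 through a median of 4.89 to 8.54 FPKM in wild type, the last at ZT14, and from 4.80 through 5.95 to 6.95 FPKM in Nono-/-. The Nono-/- library was the higher of the pair at 11 of 12 time points, all but ZT14, although the ranges overlapped. The difference was 0.24 ± 0.09 log2 (SE, adjusted p = 0.0712, and 0.0289 with the time point as a block), and it passed without ZT0 or without ZT14 (range of adjusted p over the 12 fits that each left out 1 time point 0.0169 to 0.178). In nuclear exons the values were 6.25, 7.54 and 11.4 FPKM (lowest, median, highest) in wild type and 6.68, 8.15 and 10.6 in Nono-/-, again overlapping. There the difference of 0.28 ± 0.08 log2 passed (adjusted p = 0.00981), with Nono-/- higher at 11 of 12 time points after scaling and at 9 of 12 as deposited. It missed the threshold at 0.07 log2 without scaling (adjusted p = 0.451), where the median gene itself stood at -0.20, at 0.23 log2 when the intron share entered the model as a covariate (adjusted p = 0.0709) and at 0.23 log2 with the exon share (adjusted p = 0.0703).

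Fkbp5 (chromosome 17, 28398753 to 28486149, minus strand) encodes a co-chaperone of the Hsp90 complex that the receptor induces and that in turn restrains the receptor. Its messenger RNA had the clearest daily curve of the 7 genes in both genotypes. Total RNA exons ran from 1.98 through a median of 5.46 to 19.7 FPKM in wild type and from 2.73 through 5.80 to 19.0 FPKM in Nono-/-. Libraries of ZT12 to ZT20 were high and those of ZT0 to ZT8 low in both genotypes, and the top library was ZT14 in each. The fitted curve spanned 2.68 ± 0.35 log2 from peak to trough in wild type, a 6.42-fold range with its peak at ZT15.4 ± 0.499 h (SE, adjusted p = 3.95e-05), and 2.22 ± 0.35 log2 in Nono-/-, a 4.66-fold range with its peak at ZT15.3 ± 0.603 h (adjusted p = 0.000385). The genotype difference in level was 0.05 ± 0.18 log2 (adjusted p = 0.882).

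Unspliced Fkbp5 transcripts gave another picture. Nuclear introns ran from 0.295 through a median of 0.956 to 4.73 FPKM in wild type and from 0.261 through 0.646 to 3.93 FPKM in Nono-/-. In wild type 3 libraries read above 3 FPKM, namely ZT10 (4.73), ZT12 (3.27) and ZT14 (4.26), and in Nono-/- 1 library did, ZT12 (3.93), with 1.13 at ZT10 and 1.28 at ZT14. Wild type was also above Nono-/- at ZT2 (1.28 against 0.261 FPKM) and ZT6 (2.30 against 0.600). The ranges of the 2 genotypes overlapped. The difference over the day was -0.72 ± 0.32 log2 in nuclear introns (SE, adjusted p = 0.118, and 0.0346 with the time point as a block), with Nono-/- lower at 8 of 12 time points.

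The introns of Fkbp5 in total RNA, counted in other libraries of the same livers, ran from 0.0900 through a median of 0.224 to 0.983 FPKM in wild type and from 0.0720 through 0.144 to 0.648 FPKM in Nono-/-. ZT10, ZT12 and ZT14 were again the high wild-type libraries and ZT12 the high Nono-/- library. The difference was -0.61 ± 0.25 log2 (adjusted p = 0.0938, and 0.0230 with the time point as a block), lower in Nono-/- at 10 of 12 time points. The nuclear to total exon ratio of Fkbp5 differed by -0.47 ± 0.18 log2 (adjusted p = 0.0639, and 0.0415 with the block).

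The fitted peaks of the Fkbp5 introns were set beside those of the messenger RNA, and the difference between the peaks was not tested. In wild-type nuclear introns the fitted peak was at ZT10.8 ± 1.06 h (SE) with 2.31 ± 0.64 log2 from peak to trough (adjusted p = 0.0357), and in Nono-/- at ZT13.6 ± 1.22 h with 2.01 ± 0.64 log2 (adjusted p = 0.0538). The wild-type call was lost in 7 of the 12 fits that each left out 1 time point (ZT0, ZT6, ZT10, ZT12, ZT14, ZT18 or ZT22), with adjusted p from 0.0104 to 0.153. It was also lost with no filter on low values (0.0576), an added 12 h period (0.117), array weights (0.0857) and the intron (0.0528) or exon share (0.0699) as a covariate. The test of the difference in rhythm between the genotypes gave an adjusted p of 0.748 in nuclear introns. Nuclear exons peaked at ZT12.5 ± 0.791 h in wild type (2.44 log2, adjusted p = 0.0086) and at ZT14.4 ± 0.934 h in Nono-/- (2.06 log2, adjusted p = 0.0156, and 0.0502 without ZT2).

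**Figure D3:**
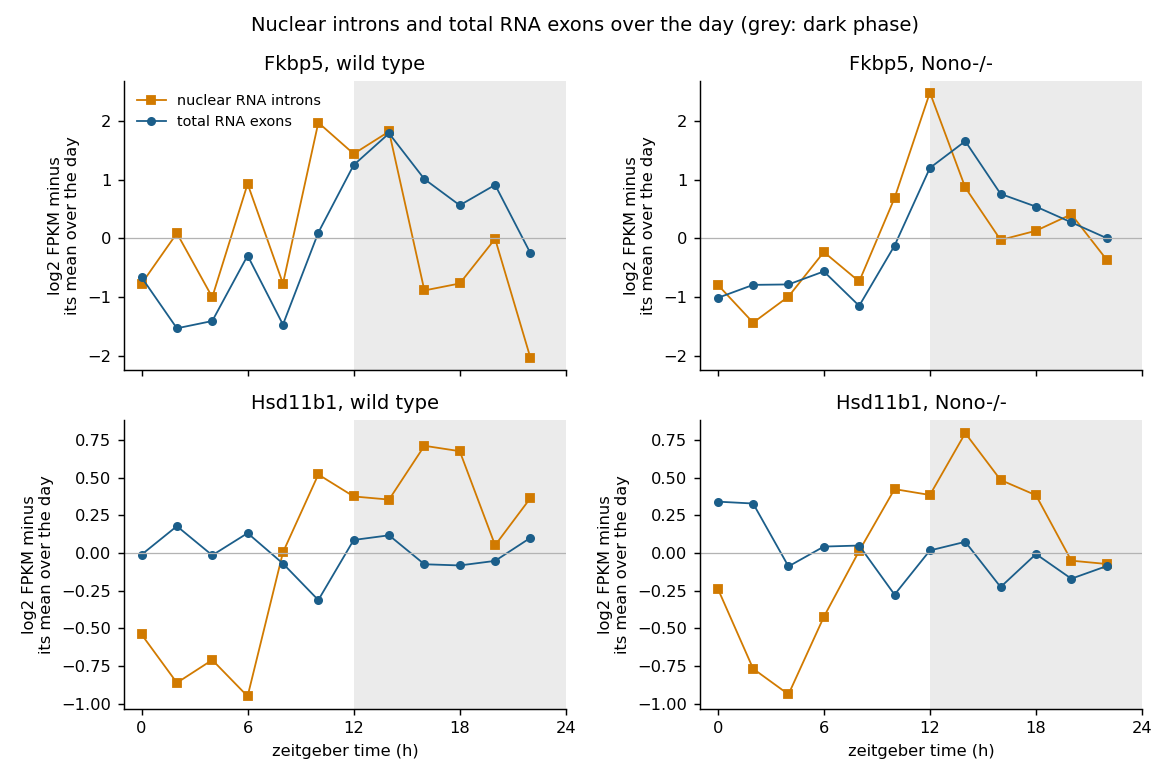
Log2 FPKM minus its mean over the 12 time points (y axis) against zeitgeber time in hours (x axis) for nuclear RNA introns (squares) and total RNA exons (circles) of Fkbp5 and Hsd11b1 in each genotype, 1 library per point. Fkbp5 introns are high from ZT10 to ZT14 in wild type and at ZT12 in Nono-/-, the exons are highest at ZT14 in both, and Hsd11b1 introns swing over the day while its exons stay near 0.

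Hsd11b1 (chromosome 1, 193221641 to 193242360, minus strand), the reductase that regenerates active hormone in the liver, passed no rhythm test as messenger RNA but passed in nuclear introns in both genotypes. Total RNA exons ran from 269.5 through a median of 331.6 to 378.5 FPKM in wild type and from 311 through 378.2 to 477 FPKM in Nono-/-, with the highest Nono-/- libraries at ZT0 and ZT2. Their fitted curve spanned 0.12 ± 0.14 log2 in wild type (adjusted p = 0.782) and 0.18 ± 0.14 log2 in Nono-/- (adjusted p = 0.558). Nuclear introns ran from 1.22 through a median of 2.73 to 3.87 FPKM in wild type and from 1.32 through 2.49 to 4.38 FPKM in Nono-/-. Libraries of ZT0 to ZT6 were the low ones and those of ZT10 to ZT18 the high ones in both genotypes, with wild-type ZT22 (3.04) among the latter.

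The curve of the Hsd11b1 nuclear introns spanned 1.41 ± 0.19 log2, or 2.65-fold, in wild type with a peak at ZT15.3 ± 0.529 h (adjusted p = 0.000182), and 1.23 ± 0.19 log2, or 2.35-fold, in Nono-/- with a peak at ZT14.7 ± 0.602 h (adjusted p = 0.000655). Introns in total RNA did not pass, with 0.52 log2 in wild type (adjusted p = 0.0864) and 0.06 log2 in Nono-/- (adjusted p = 0.956). Nuclear exons had 0.90 log2 at ZT18.4 ± 0.751 h (adjusted p = 0.00583) and 0.96 log2 at ZT17.2 ± 0.710 h (adjusted p = 0.00296). The level of the messenger RNA was 0.15 ± 0.07 log2 above wild type in Nono-/- at 11 of 12 time points, which did not pass (adjusted p = 0.189). The introns in total RNA differed by 0.21 ± 0.08 log2 (adjusted p = 0.0775), a value that turned to -0.04 without scaling.

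Tsc22d3 encodes GILZ, a leucine zipper protein induced by glucocorticoids that dampens inflammatory signalling. The tables count it over 1 short entry on chromosome X (140539529 to 140542668, minus strand), a transcript that RefSeq lists as non-coding. RefSeq also lists starts of Tsc22d3 at 140548571 and 140600522, outside this entry. Parts of longer transcripts that lie beyond the entry are not counted. Total RNA exons ran from 19.7 through a median of 57.0 to 121 FPKM in wild type and from 15.0 through 55.7 to 80.9 FPKM in Nono-/-. ZT4 was the lowest library in both genotypes and in all 4 exon and intron measures, and the highest were ZT20 in wild type and ZT14 in Nono-/-. At ZT6, ZT8 and ZT10 wild type read 51.2, 39.8 and 50.3 FPKM and Nono-/- 17.2, 20.8 and 22.3, while from ZT12 to ZT2 each genotype was the higher one at some time points.

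The genotype difference of Tsc22d3 in total RNA exons was -0.44 ± 0.19 log2 (SE), lower in Nono-/- at 9 of 12 time points, with an adjusted p of 0.144 and of 0.0409 with the time point as a block. Nuclear introns differed by -0.43 ± 0.26 log2 (adjusted p = 0.247) between ranges of 2.97 through 8.80 to 21.3 FPKM in wild type and 2.46 through 7.14 to 14.2 FPKM in Nono-/-. Total RNA exons of this entry were rhythmic in wild type, with 1.30 ± 0.38 log2 from peak to trough and a peak at ZT18.4 ± 1.12 h (adjusted p = 0.0341). They were also rhythmic in Nono-/-, with 2.16 ± 0.38 log2 and a peak at ZT19.0 ± 0.674 h (adjusted p = 0.00108). The wild-type call was lost without ZT4, ZT8, ZT16, ZT18 or ZT20 (adjusted p up to 0.117), with no filter on low values (0.0621), with an added 12 h period (0.1004) and with the exon share as a covariate (0.0540). The Nono-/- call in nuclear introns (1.81 log2, peak at ZT17.0 ± 1.10 h, adjusted p = 0.0337) was lost without any 1 of 7 time points (ZT2, ZT6, ZT8, ZT12, ZT14, ZT16 or ZT20), with adjusted p up to 0.0718, and that in nuclear exons without ZT6, ZT8, ZT12 or ZT14 (up to 0.0720). Both were also lost with no filter on low values (0.0531 and 0.0507), an added 12 h period (0.137 and 0.0971) and the exon share as a covariate (0.109 and 0.0628), and the former with the intron share (0.0506). The difference between the 2 rhythms in total RNA exons had an adjusted p of 0.570.

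Sgk1 encodes a kinase of ion transport and cell survival, induced by both glucocorticoids and mineralocorticoids. The exon table counts it over chromosome 10, 21986104 to 21999902 (plus strand), and the intron table over a shorter transcript that starts at 21994666. One of the promoters RefSeq lists for Sgk1 holds a full palindrome of the glucocorticoid response element, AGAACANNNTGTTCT, which is why it is shown. RefSeq promoters (build GRCm38.p6) were matched for 6 of the 7 genes, 13 promoters in all, and the palindrome was searched on both strands from 250 bases before to 30 bases after each start. It occurred in this 1 of the 13 and in 3 of 32851 promoters of all genes (0.00913%). The site starts 189 bases before the transcript start at 21993890 and 965 bases before the start of the transcript in the intron table. It contains 2 copies of the shorter site AGAACA, 1 on each strand, a motif that 17.8% of all promoters hold. The 250 bases before the start at 21993890, chr10:21993640-21993889 on the plus strand, read as follows 5′ to 3′, with the palindrome in capitals.
Sgk1: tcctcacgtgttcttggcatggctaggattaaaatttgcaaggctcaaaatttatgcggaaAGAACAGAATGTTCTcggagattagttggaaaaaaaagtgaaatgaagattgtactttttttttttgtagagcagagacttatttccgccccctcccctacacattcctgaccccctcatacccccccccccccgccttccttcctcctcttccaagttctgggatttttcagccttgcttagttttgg
A match of letters is a description of the sequence and was not tested for binding.

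Sgk1 messenger RNA ran from 6.50 through a median of 8.12 to 13.6 FPKM in wild type and from 5.88 through 8.41 to 10.5 FPKM in Nono-/-. The 2 high wild-type libraries were ZT0 (12.7) and ZT18 (13.6), and all others overlapped with Nono-/-. The genotype difference was -0.11 ± 0.12 log2 (adjusted p = 0.590), and no rhythm passed in total RNA exons (0.15 log2 in wild type, adjusted p = 0.845, and 0.42 log2 in Nono-/-, adjusted p = 0.325). Nuclear introns ran from 0.907 through 1.41 to 3.65 FPKM in wild type and from 0.989 through 1.20 to 1.69 FPKM in Nono-/-, with 36 to 191 reads per library. The highest wild-type library was ZT0. The difference was -0.29 ± 0.13 log2 (adjusted p = 0.127) in nuclear introns and 0.33 ± 0.16 log2 (adjusted p = 0.159) in total RNA introns, so the signs differed between the 2 kinds of RNA and neither passed.

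Mt1 and Mt2 encode metallothioneins, small proteins that bind zinc and copper, and both genes answer to metals through the factor Mtf1 as well as to glucocorticoids. They lie side by side on chromosome 8, Mt2 at 94172618 to 94173567 and Mt1 at 94179089 to 94180327, both on the plus strand and 5521 bases apart. Their promoters are shown because the 2 genes moved together in these libraries. The core of the metal response element was searched as TGCACNC and TGCGCNC on both strands in the same window, in which 24.1% of all promoters hold at least 1 copy and 1.73% hold 3 or more. Mt2 held 4 and Mt1 held 3. Among the other promoters of the 7 genes the start of Hsd11b1 and 1 start of Sgk1 held 1 each. The windows of 280 bases, on the plus strand at chr8:94172368-94172647 and chr8:94178839-94179118, read as follows 5′ to 3′, with the cores in capitals.
Mt2: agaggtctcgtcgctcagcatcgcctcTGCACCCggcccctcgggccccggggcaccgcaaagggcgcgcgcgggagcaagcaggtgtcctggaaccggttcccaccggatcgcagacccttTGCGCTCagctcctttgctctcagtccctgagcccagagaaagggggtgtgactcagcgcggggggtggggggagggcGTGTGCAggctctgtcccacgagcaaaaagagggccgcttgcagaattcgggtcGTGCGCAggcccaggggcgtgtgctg
Mt1: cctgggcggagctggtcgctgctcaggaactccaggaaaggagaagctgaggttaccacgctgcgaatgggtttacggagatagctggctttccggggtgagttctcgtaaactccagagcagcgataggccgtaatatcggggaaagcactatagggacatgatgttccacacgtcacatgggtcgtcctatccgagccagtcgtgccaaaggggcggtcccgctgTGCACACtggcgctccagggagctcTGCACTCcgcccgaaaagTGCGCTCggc
No full glucocorticoid response element palindrome was found in these 2 windows, which says nothing of the receptor elsewhere.

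The metallothioneins had the widest swings of the 7 genes, with high values in the light phase. Mt1 exons in total RNA ran from 3.64 through a median of 19.1 to 104 FPKM in wild type and from 3.95 through 30.5 to 101 FPKM in Nono-/-. In wild type ZT6 (89.3) and ZT10 (104) stood high, with ZT8 (21.4) between them low, and in Nono-/- ZT4, ZT6, ZT8 and ZT10 read 92.3, 101, 64.9 and 68.9 FPKM. Nono-/- also had 31.6 FPKM at ZT20, where wild type had 3.64. Mt2 exons ran from 0.347 through 3.98 to 38.1 FPKM in wild type and from 0.116 through 8.0 to 53.2 FPKM in Nono-/-, with 1 to 502 reads per library. The groups overlapped for both genes.

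The fitted curve of Mt1 spanned 3.39 ± 0.88 log2, or 10.5-fold, in wild type with its peak at ZT8.08 ± 0.995 h (adjusted p = 0.0171), and 3.53 ± 0.88 log2, or 11.6-fold, in Nono-/- with its peak at ZT8.50 ± 0.955 h (adjusted p = 0.0146). The wild-type call was lost without ZT10 or without ZT6 (adjusted p up to 0.0552), and both calls were lost with an added 12 h period (0.0974 in wild type and 0.0584 in Nono-/-). Mt2 did not pass in either genotype (3.77 log2, adjusted p = 0.0819, and 4.04 log2, adjusted p = 0.0631). The genotype difference in total RNA exons was 0.33 ± 0.44 log2 for Mt1 (adjusted p = 0.684) and 0.07 ± 0.66 log2 for Mt2 (adjusted p = 0.961). With standard errors this wide the 2 genes gave no test of small genotype differences.

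Mt1 introns in the nucleus ran from 0.181 through a median of 2.24 to 29.2 FPKM in wild type and from 0.0580 through 1.09 to 17.2 FPKM in Nono-/-. ZT10 was the highest library in both genotypes (29.2 and 17.2 FPKM), ZT8 was low in both (1.06 and 1.27), and ZT14 to ZT18 were below 1 FPKM in both. At ZT2 wild-type nuclear introns stood at 25.2 FPKM (330 reads) while the exons in total RNA of the same livers stood at 3.95 FPKM, and Nono-/- had 0.597 and 3.95 FPKM. Nono-/- had its second maximum at ZT4, with 15.2 FPKM in Mt1 nuclear introns and 3.39 FPKM in those of Mt2. Mt2 introns read 8.36 and 5.55 FPKM at ZT10 and 4.19 against 0.176 FPKM at ZT2. The nuclear introns gave a rhythm of Mt1 in wild type (5.47 ± 1.44 log2, peak at ZT5.12 ± 1.01 h, adjusted p = 0.0268), which was lost without ZT2, ZT14, ZT16 or ZT18 and with an added 12 h period (0.108), and no genotype difference that passed (Mt1 -0.52 ± 0.72 log2, adjusted p = 0.644, and Mt2 -0.87 ± 0.72 log2, adjusted p = 0.412). The nuclear to total exon ratio of Mt1 differed by -1.03 ± 0.46 log2 (adjusted p = 0.108, and 0.0312 with the time point as a block), lower in Nono-/- at 10 of 12 time points. Mt2 had 104 to 180 reads per group in nuclear exons and introns, with 1 to 3 libraries at 0 in 3 of those 4 groups.

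**Figure D4:**
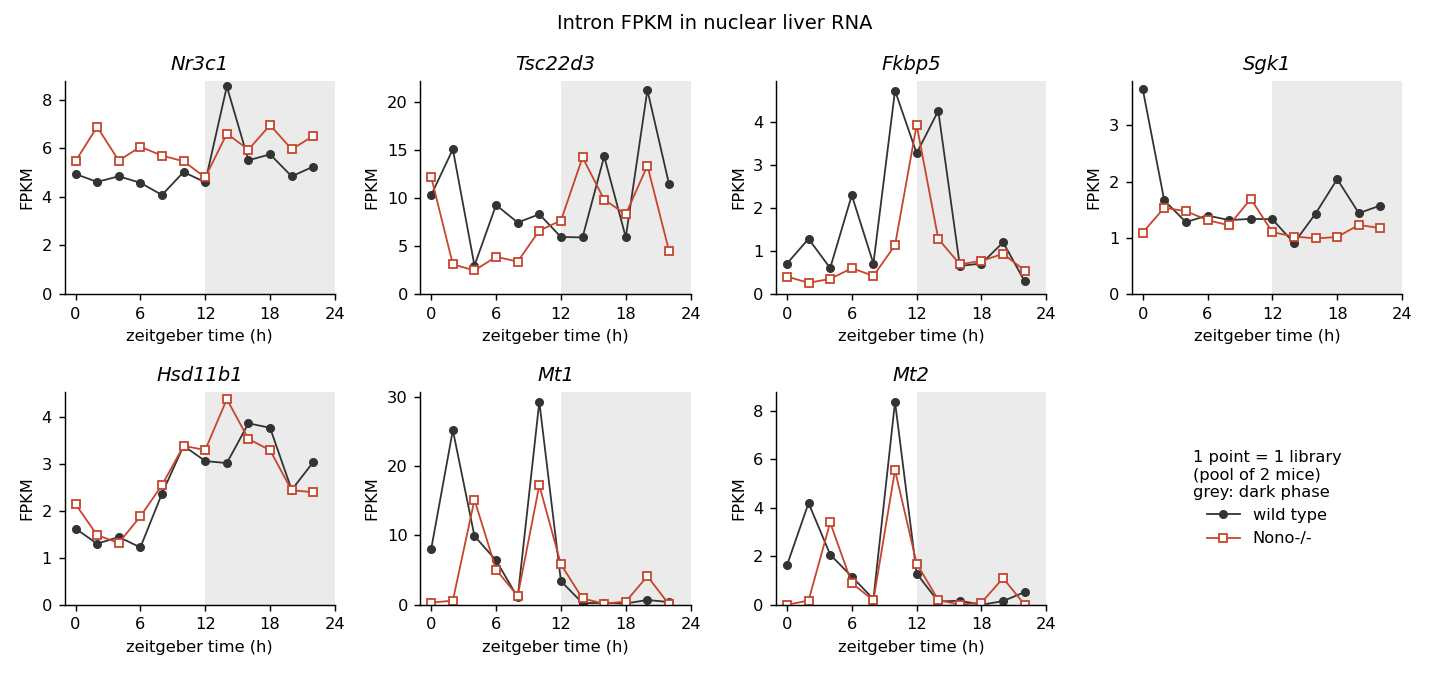
Intron FPKM of the 7 genes in nuclear liver RNA (y axis, linear, from 0) against zeitgeber time in hours (x axis), 1 library per point, wild type as filled circles and Nono-/- as open squares. Mt1 and Mt2 peak at ZT10 in both genotypes, with a second maximum at ZT2 in wild type and at ZT4 in Nono-/-, Fkbp5 is high at ZT10 to ZT14 in wild type and at ZT12 in Nono-/-, and Hsd11b1 climbs from ZT6 in both.

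To describe which transcripts followed the same pattern, the log2 levels of each gene in the 24 total RNA libraries were correlated with those of 9914 genes, as a description that includes the shared daily curve and genotype. Mt1 was most like Mt2 (r = 0.91), and both were like Gnat1 (0.81 and 0.84), which encodes a transducin subunit. Fkbp5 was most like St3gal5 (0.95), a ganglioside sialyltransferase, and Fmo2 (0.94), a flavin monooxygenase. Tsc22d3 was like Dpy19l1 (0.87) and Tat (0.83), the tyrosine aminotransferase long used as a marker of glucocorticoid action in liver. Nr3c1 was like Zdhhc6 (0.92) and Mbnl1 (0.91), Hsd11b1 was like the small nucleolar RNAs Snora74a (0.87) and Snord22 (0.83), and Sgk1 had the lowest likeness, with 1600020E01Rik (0.74) and Zfp950 (0.66).

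The wider pathway was read from 6 lists of named genes. Coregulators that the receptor recruits were the group with the most genotype calls in total RNA exons, where 9 of 14 fell in Nono-/- and 0 rose, against 6.57% of all genes lower and 4.49% higher. The median of the list was -0.30 log2, against -0.0035 over all genes. Among them were the acetyltransferases Crebbp (-0.55 ± 0.10 log2, SE, adjusted p = 0.0025) and Ep300 (-0.43 ± 0.08, adjusted p = 0.00325), the corepressor Ncor1 (-0.30 ± 0.06), the p160 coactivators Ncoa1 (-0.30), Ncoa2 (-0.34) and Ncoa3 (-0.19), the mediator subunit Med14 (-0.24) and Hexim1 (-0.30), an inhibitor of the elongation kinase P-TEFb. Each of these named genes was lower in Nono-/- at 10 or 11 of 12 time points. In nuclear introns 0 of 13 passed, with a median of 0.04 log2 and 2 at an unadjusted p under 0.05. Of all 12055 genes 8.48% were higher, 9.46% were lower and 4121 had such an unadjusted p. In total RNA introns 5 of 13 were lower and 0 higher, with a median of -0.12 log2, against 8.87% of all genes lower. In nuclear exons 3 of 14 were lower and 1 was higher, with a median of -0.09 log2, against 18.5% of all genes lower and 15.9% higher. In the nuclear to total exon ratio 8 of 14 were higher and 0 lower, against 10.7% of all genes higher. When the intron share entered the model as a covariate, an alternative applied to the lists after seeing the data, 1 of 14 coregulators was lower in total RNA exons (Hexim1), the list median was -0.18 log2, and 23 genes passed in all in place of 1256. The intron share itself differed between the genotypes (22.1% in wild type, 18.5% in Nono-/-), so this fit cannot tell the 2 apart. In the same measure 8 of 14 were lower with the exon share, 7 of 14 without scaling and 10 of 14 with the time point as a block.

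Other receptor targets moved in both directions. In total RNA exons 1 of 24 fell, the clock gene Per1 (-0.93 ± 0.23 log2, adjusted p = 0.0129, lower at 12 of 12 time points, a call that was lost with the intron share as a covariate), 0 rose, and the list median was -0.25 log2. Neither count was above the share of all genes, 6.57% lower and 4.49% higher. In nuclear introns, where 8.48% of all genes were higher and 9.46% lower, 3 of 22 rose, namely the phosphatase gene Dusp1 (0.91 ± 0.19), the glucose-6-phosphatase gene G6pc (0.88 ± 0.23) and Igfbp1 (1.53 ± 0.41), which encodes a carrier of insulin-like growth factors in plasma. In the same measure 4 of 22 fell, Lpin1 (-1.65 ± 0.39), a phosphatidate phosphatase, the cell cycle inhibitor Cdkn1a (-0.82 ± 0.24), Klf15 (-0.55 ± 0.14), a factor of amino acid breakdown, and Per1 (-0.87 ± 0.27). With the intron share as a covariate the calls in nuclear introns were Dusp1, Lpin1 and Igfbp1, and with the exon share Cdkn1a, Dusp1 and Lpin1. The calls of G6pc, Klf15 and Per1 were lost with either covariate. Daily rhythms in total RNA exons passed for 13 of 24 in wild type and 10 of 24 in Nono-/-, against 31.8% and 29.6% of all genes, among them Cdkn1a with 4.33 log2 from peak to trough at ZT21.3 in wild type and Cyp2b10 with 2.37 log2 at ZT21.4. With the time point as a block 3 of 24 rose and 7 of 24 fell in total RNA exons, where 923 of 11352 genes were higher and 1159 lower in that fit.

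The chaperones that hold the receptor gave 0 of 13 calls in total RNA exons, with a list median of -0.05 log2 and 0 at an unadjusted p under 0.05. Of all 11352 genes 4.49% were higher, 6.57% were lower and 2991 had an unadjusted p under 0.05. In nuclear introns 4 of 12 fell, at a list median of -0.22 log2 and against 9.46% of all genes: the co-chaperones Fkbp4 (-0.78 ± 0.20 log2), Ppp5c (-0.53 ± 0.11), Stub1 (-0.66 ± 0.17) and Bag1 (-0.18 ± 0.06). In nuclear exons 5 of 12 were lower and 1 was higher, against 18.5% and 15.9% of all genes. Of the genes of hormone supply and clearance 1 of 8 fell in total RNA exons, Srd5a2 (-0.66 ± 0.19 log2, adjusted p = 0.0287, a call lost with the intron share as a covariate), a steroid reductase, and 1 of 8 in nuclear introns, H6pd (-0.40 ± 0.13), which makes the NADPH that Hsd11b1 uses. Over all genes 6.57% were lower in total RNA exons and 9.46% in nuclear introns. Regulators of zinc and metallothionein gave 0 of 8 calls in total RNA exons and in nuclear introns, with 2 and 1 at an unadjusted p under 0.05. Over all genes 2991 of 11352 and 4121 of 12055 had such a p. In nuclear exons 2 of 8 were lower, against 18.5% of all genes, Mtf1 (-0.27 ± 0.09) and Slc39a14 (-0.37 ± 0.11). With the intron share as a covariate Mtf1 alone was called in nuclear exons, and with the exon share Slc39a14 alone. Relatives of the 7 genes (other Fkbp, Sgk and Tsc22d genes, and Nedd4l, a ubiquitin ligase that Sgk1 phosphorylates) gave 0 of 11 in total RNA exons (1 at an unadjusted p under 0.05) and 3 of 11 lower in nuclear introns, Fkbp4, Fkbp8 (-0.38 ± 0.10) and Fkbp2 (-0.72 ± 0.24). With the intron share as a covariate 3 of 12 chaperones were lower in nuclear introns (Ppp5c, Stip1 and Fkbp4), at a list median of -0.42 log2 and against 423 of 12055 genes. When the exon share was the covariate, also applied to the lists after seeing the data, the calls in nuclear introns were 1 of 12 chaperones (Ppp5c, at a list median of -0.32 log2), 3 of 22 other targets, 1 of 11 relatives (Tsc22d1, higher) and 0 of 8 in hormone supply. Over all 12055 genes 429 were higher and 355 lower in that fit.

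**Figure D5:**
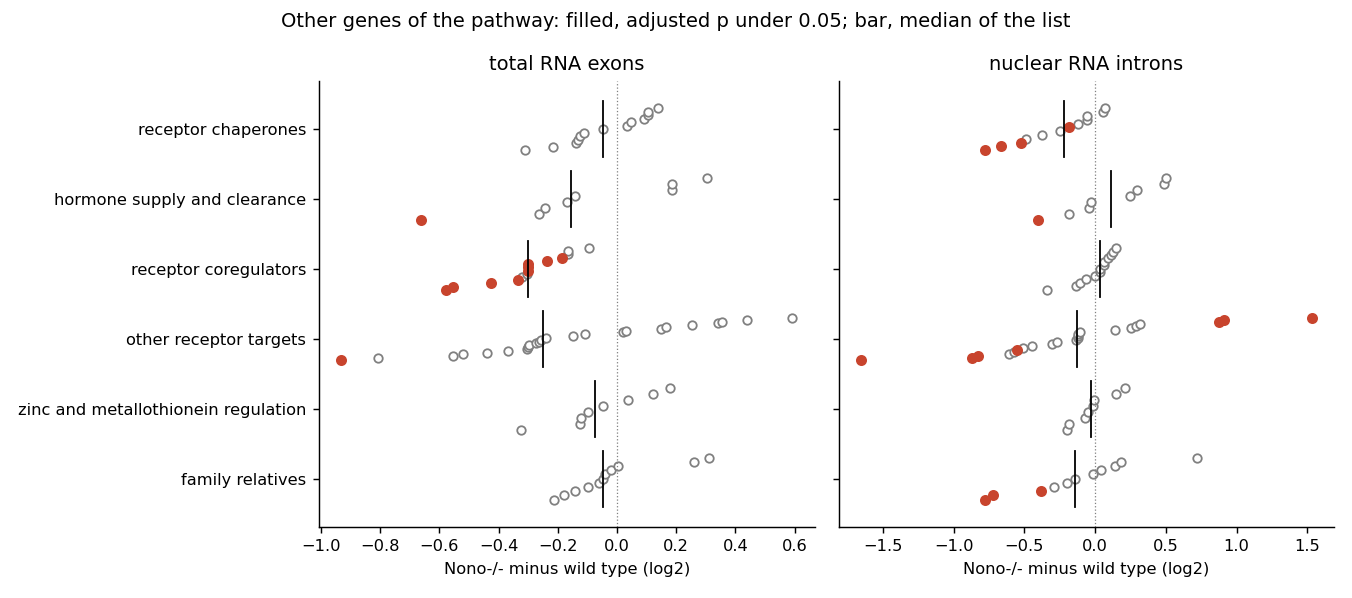
Genotype difference, Nono-/- minus wild type, in log2 units (x axis) for the tested genes of 6 pathway lists (y axis) in total RNA exons (left) and nuclear RNA introns (right). Each circle is 1 gene from 12 libraries per genotype, filled where the adjusted p is under 0.05, and black bars are list medians. The coregulators lie below 0 on the left, 9 of 14 of them filled, and around 0 on the right.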

How the data were processed

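Total and nuclear RNA of the same livers was sequenced in 48 libraries after removal of ribosomal RNA (TruSeq Stranded Total RNA with Ribo-Zero Gold), per the labels' protocols. The submitters' processing notes name build mm10, FastQC 0.11.2 and STAR 2.4.0k. Per the file headers, the authors computed FPKM over exons or introns with HOMER's analyzeRepeats.pl and deposited 1 entry per gene. The headers show no strand option. Of the value columns, 0 were left unmapped to a sample.

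The 7 genes and the 6 pathway lists were chosen with earlier results of these data known. The rule named all 7 genes and the 2 genes most like each of the 7. From each list it named a capped number of genes past the genotype threshold in total RNA exons and in nuclear introns, smallest p first. It also named a capped number past the rhythm threshold in wild-type total RNA exons, largest peak-to-trough first. Further list members were named beyond this rule, among them coregulators, other targets and the nuclear exon calls of Mtf1 and Slc39a14. Cyp2b10 was chosen after its values were seen. One list member past the threshold is not reported here.

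Depth was recovered from steps of low FPKM values: 100% of those worth 1 to 10 reads were whole to within 0.1 read. A depth of 9.91 to 28.9 M reads limits the precision of Mt1, Mt2 and Sgk1, which had few reads outside total RNA exons. Libraries were scaled by the median of their gene-wise ratios to the geometric mean and taken as log2(FPKM + 0.1) for exons or log2(FPKM + 0.05) for introns, for genes with a mean of at least 0.5 or 0.1 FPKM. Changes are thus relative to the median gene, and changes of low genes are understated. The limma-trend model (R 4.3.3, limma 3.58.1) had a genotype term, a 24 h cosine curve and a separate curve for Nono-/-. The genotype term tested the level, F tests each genotype's curve, and an F test the difference of curves, two-sided throughout, with Benjamini-Hochberg adjustment over all genes tested and a threshold of 0.05. The model was tested on simulated data. P-values measure the spread between pools of different times, since no time point has replicates. Figures used Python 3.11.15 and matplotlib 3.10.9.

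For each time point, deviations of the wild-type and Nono-/- libraries from their group means were correlated. The correlation was over 0.1 in 12 of 12 pairs in total RNA exons (0.144 to 0.563), nuclear introns (0.260 to 0.654) and total RNA introns (0.144 to 0.542). In nuclear exons it was over 0.1 in 11 of 12 pairs. These deviations hold the daily curve that the genotypes share, so the correlation cannot tell a pairing of libraries from that curve. The main fits did not pair the time points, and the block was used as an alternative only. Alternatives were other scalings, pseudocounts and filters, the block, an added 12 h period, array weights, covariates of read composition, and leaving out each time point.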

Additional observations from a re-analysis of the deposited data

How the results depend on the processing

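The counts below are of the 7 genes that passed. With the time point as a replicate block the genotype count went from 0 to 1 in total RNA exons, 0 to 2 in nuclear introns, 1 to 2 in nuclear exons (Tsc22d3 added), 0 to 1 in total RNA introns and 0 to 2 in the nuclear to total ratio, and over all genes in total RNA exons from 1256 to 2082; the block changed no other genotype call of the 7. With array weights it was 2, 2 and 3 in nuclear introns, nuclear exons and the ratio, and the Nono-/- rhythm counts were 5, 4 and 6 in total RNA exons, nuclear introns and nuclear exons (3, 2 and 3 otherwise). Array weights also raised the counts over all genes, from 1943 to 4015 for genotype in the ratio. For the Nono-/- rhythm they rose from 3854 to 6613 in nuclear introns and from 3270 to 6217 in nuclear exons. With an added 12 h period the wild-type rhythm count fell from 3 to 1 in total RNA exons and in nuclear introns, and the Nono-/- count from 2 to 1 in nuclear introns. With the intron or the exon share as a covariate the genotype count in nuclear exons was 0 and the Nono-/- rhythm count in nuclear introns 1. Without scaling, where the median gene moved to -0.20 log2 in nuclear exons and -0.21 in total RNA introns, total RNA introns and the ratio each gave 2. The scaling to the 75th percentile gave 1 in nuclear introns, the filter 4 times stricter 1 in the ratio, and no filter 1 for the Nono-/- rhythm in nuclear introns. Leaving out 1 time point gave 0 to 1 for genotype in nuclear introns, total RNA introns and the ratio, and 1 to 4 for the rhythm in nuclear introns of each genotype. Over all genes, the intron share lowered the genotype count from 1256 to 23 in total RNA exons and from 1506 to 26 in total RNA introns, and the exon share from 2163 to 784 in nuclear introns and from 3603 to 919 in nuclear exons. The causes were not tested.

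Turned signs, none of a called difference, were these. In total RNA exons Fkbp5 went from 0.05 to -0.044 (array weights), -0.13 (intron share) and -0.053 (exon share), Sgk1 to 0.012 (intron share) and Mt2 to -0.044 (exon share). In nuclear exons Sgk1 went from 0.0041 to -0.20 without scaling, -0.016 with the 75th percentile, -0.0031 with a pseudocount 10 times larger, -0.040 with the stricter filter, -0.050 with array weights, -0.070 with the intron share and -0.082 with the exon share, and Hsd11b1 to 0.012 (intron share) and 0.029 (exon share). In total RNA introns Hsd11b1 went to -0.039 without scaling and -0.022 with the intron share. In the ratio, without scaling, Nr3c1 went to -0.027, Tsc22d3 to -0.21 and Sgk1 to -0.11, and Tsc22d3 went to -0.021 with the stricter filter and -0.040 with array weights. Leaving out 1 time point gave ranges across 0 for Mt1 (-0.13 to 0.59), Nr3c1 (-0.059 to 0.0011) and Tsc22d3 (-0.22 to 0.019) in total RNA introns, Mt2 in total RNA exons (-0.35 to 0.39), Sgk1 in nuclear exons (-0.060 to 0.11) and Tsc22d3 in the ratio (-0.064 to 0.11).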

Other observations

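Of the regulators of zinc and metallothionein 5 of 8 were rhythmic in each genotype in total RNA exons, against 31.8% of all genes in wild type and 29.6% in Nono-/-. The manganese and zinc exporter gene Slc30a10 spanned 2.10 log2 from peak to trough in wild type, with its peak at ZT22.4, and 2.09 log2 in Nono-/-, at ZT23.3. Mtf1, the factor that binds metal response elements, spanned 0.70 log2 with its peak at ZT18.3 in wild type and 0.51 log2 at ZT18.0 in Nono-/-, away from the light-phase maximum of Mt1.

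Of the receptor chaperones 3 of 13 were rhythmic in wild type and 5 of 13 in Nono-/-, against the same shares. Fkbp4, which encodes the co-chaperone FKBP52, spanned 1.56 log2 at ZT20.7 in wild type and 1.54 log2 at ZT22.3 in Nono-/-. Hsp90ab1 spanned 0.74 log2 at ZT20.2 and 0.83 log2 at ZT19.5. Serpina6, which encodes the corticosteroid-binding globulin of plasma, spanned 0.90 log2 at ZT14.5 in wild type (adjusted p = 0.0125) and 0.69 log2 at ZT14.0 in Nono-/- (adjusted p = 0.0604). The rhythm difference in total RNA exons passed in limma for 0 genes of these 3 lists, and at an unadjusted p under 0.05 for 0 of 8, 0 of 13 and 0 of 8 (zinc, chaperones and hormone supply). Such an unadjusted p was found for 5 of 14 coregulators, 2 of 24 other receptor targets and 1 of 11 relatives. Over all genes it was found for 1210 of 11352.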
